A study of Mus musculus with 12 samples.

Results

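The Gprc5 genes encode a small family of orphan receptors, and 3 of them, Gprc5a, Gprc5b and Gprc5c, were followed here among the 30630 genes listed for each tumor. Gprc5a was chosen by its FPKM in the groups compared here, which were already known to be lower in the tumors of swimming mice. Its difference between the groups is therefore given as a description without a test. Gprc5b and Gprc5c were taken by family name, for comparison with Gprc5a. The tumors were grown from CT-26, a single mouse colon carcinoma line, injected under the skin of the right flank in Matrigel in male BALB/c mice of 4 to 6 weeks of age at purchase. These mice are immunocompetent and of the strain from which the line came, and the flank is not the site of origin of a colon tumor. Of the 12 tumors, 6 were from control mice that carried the same cells and did not swim, and 6 were from mice that swam for 3 weeks. RNA was sequenced after removal of ribosomal RNA, and the level of each gene was given as FPKM, fragments scaled by gene length and by the size of the library. The number of reads per tumor was not used here. Judged from weakly expressed genes, control 2 was the shallowest library, at 0.694 of the depth of control 1, and all others reached at least 0.871 of it.

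GPRC5 proteins span the cell membrane and are placed in class C of the G protein-coupled receptors, next to the receptors for glutamate, GABA, calcium and sweet taste, but they lack the long outer ligand-binding domain of those receptors and have no established ligand. GPRC5A was found as a gene induced by retinoic acid. It is abundant in lung epithelium, where it acts as a tumor suppressor in mice, and it is often raised in colorectal and pancreatic carcinoma. GPRC5B is known from brain and adipose tissue, GPRC5C from kidney and from dormant blood stem cells, and GPRC5D from plasma cells and hair-forming cells.

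FPKM of a family of similar genes depend on whether reads can be placed on 1 gene only, so the coding sequences were compared first (GENCODE M21, GRCm38). Gprc5a (ENSMUSG00000046733) lies on the plus strand at chr6:135065651-135084709 and has 1 annotated transcript with 4 exons and a coding sequence of 1071 bases, or 356 codons. Gprc5b (ENSMUSG00000008734, minus strand, chr7:118972047-118995211) has 4 transcripts, and Gprc5c (ENSMUSG00000051043, plus strand, chr11:114851152-114872617) has 8. The transcripts used for comparison, Gprc5b-204 and Gprc5c-202, encode 411 and 441 codons. Aligned coding bases of Gprc5a were 63.6% identical to those of Gprc5b and 63.7% identical to those of Gprc5c, while Gprc5b and Gprc5c were 65.3% identical. The longest runs that Gprc5a shared with them are shown to make clear how short they are. Capitals mark the shared run, and 15 bases of coding sequence stand on either side. The run of 12 bases shared with Gprc5b covers coding bases 256 to 267 of Gprc5a in exon 2 (chr6:135078812-135078823) and 334 to 345 of Gprc5b in exon 1 (chr7:118984300-118984311), and the run of 14 bases shared with Gprc5c covers coding bases 322 to 335 of Gprc5a in exon 2 (chr6:135078878-135078891) and 379 to 392 of Gprc5c in exon 2 (chr11:114863877-114863890).
Gprc5a, run shared with Gprc5b: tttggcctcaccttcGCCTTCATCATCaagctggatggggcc
Gprc5b: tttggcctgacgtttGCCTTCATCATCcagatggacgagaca
Gprc5a, run shared with Gprc5c: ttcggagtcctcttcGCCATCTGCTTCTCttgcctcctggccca
Gprc5c: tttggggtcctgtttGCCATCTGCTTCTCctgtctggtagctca

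Over the whole transcripts, untranslated parts included, Gprc5a shared 0 runs of 25 bases with Gprc5b or Gprc5c, and the paralogs shared 0 with each other. The fourth gene of the family, Gprc5d (ENSMUSG00000030205), lies next to Gprc5a on the opposite strand (chr6:135105991-135118283). Its coding sequence was 63.8% identical to that of Gprc5a, with a longest shared run of 14 bases and 0 shared runs of 25 bases. This run is shown because the pair are neighbors; it covers coding bases 208 to 221 of Gprc5a in exon 2 (chr6:135078764-135078777) and 187 to 200 of Gprc5d in exon 2 (chr6:135116708-135116721).
Gprc5a, run shared with Gprc5d: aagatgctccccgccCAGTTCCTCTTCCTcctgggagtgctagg
Gprc5d: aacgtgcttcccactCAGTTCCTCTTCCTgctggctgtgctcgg

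Gprc5a was the main Gprc5 transcript of these tumors in FPKM, which are per length and can be compared between genes. Its mean over all tumors was 36.2 FPKM, higher than that of 94.8% of the listed genes. Gprc5b followed with 6.17 FPKM and Gprc5c with 0.182 FPKM. In every tumor Gprc5a made up between 80.0% and 89.9% of the summed FPKM of the 4 family genes. The order Gprc5a, Gprc5b, Gprc5c was the same in all 12 tumors, with no overlap between neighbors in this order.

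Gprc5a was at 42.2, 37.6, 41.2, 49.4, 40.0 and 39.6 FPKM in controls 1 to 6. It was at 32.3, 30.7, 27.3, 29.8, 29.2 and 35.0 FPKM in swimming tumors 1 to 6. All swimming tumors were below all control tumors, with control 4 the highest and swimming 3 the lowest, and 2.6 FPKM lay between the lowest control (control 2, the shallowest library) and the highest swimming tumor (swimming 6). The group means were 41.7 ± 4.10 FPKM in control and 30.7 ± 2.66 FPKM in swimming tumors (SD, n = 6 each), 26.2% lower with swimming. On log2(FPKM + 1), the difference was -0.43 with a standard error of 0.07. Relative to its level Gprc5a varied little within a group, with a coefficient of variation of 9.84% in control and 8.66% in swimming tumors. In whole tumors, fewer cells of a type that expresses Gprc5a and less of its RNA per cell cannot be told apart.

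Of the 19018 genes tested, which were those that reached 0.1 FPKM in 6 or more tumors, 0.0684% (13 genes) had all swimming tumors below all control tumors. Gprc5a is among them by the way it was chosen. By mean FPKM it was the 3rd most abundant of these 13 genes, and by size of the log2 difference it was also the 3rd.

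**Figure D1:**
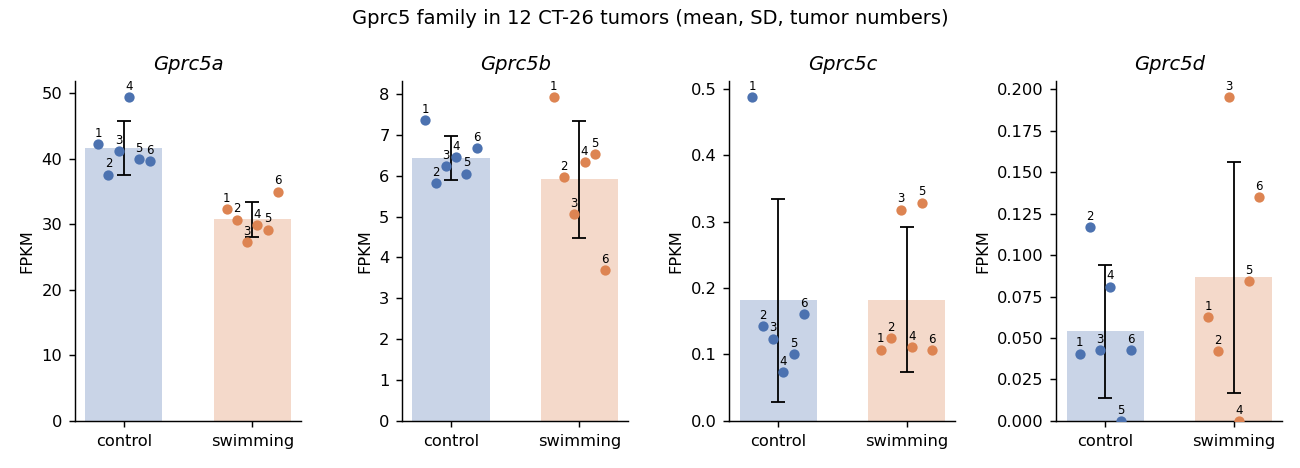
Level of each Gprc5 gene in FPKM (vertical axis, each panel with its own scale) in the 6 control and 6 swimming tumors, with a point for each tumor and the mean and SD of each group. The groups do not overlap for Gprc5a, while those of Gprc5b, Gprc5c and Gprc5d do.

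Gprc5b differed less between the groups than between tumors of a group. It was at 7.36, 5.83, 6.24, 6.45, 6.05 and 6.67 FPKM in controls 1 to 6 and at 7.92, 5.97, 5.05, 6.33, 6.52 and 3.697 FPKM in swimming tumors 1 to 6. Swimming 1 was above all control tumors, swimming 3 and swimming 6 were below all of them, and the other 3 swimming tumors lay within the range of the controls. The means were 6.43 ± 0.542 and 5.91 ± 1.43 FPKM (SD, n = 6 each). The log2 difference was -0.13 with a standard error of 0.13 (limma adjusted p = 0.934), and its 95% interval reached from -0.40 to 0.14. In a two-sided exact permutation test the p was 0.422. The 3′ end of Gprc5b overlaps that of Iqck on the opposite strand, and use of strand in counting is not given in the sources used here. Iqck itself was low, with means of 0.227 FPKM in control and 0.279 FPKM in swimming tumors.

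Gprc5c was near the lower limit of the values compared. It was at 0.487, 0.143, 0.124, 0.0733, 0.1003 and 0.161 FPKM in controls 1 to 6 and at 0.107, 0.124, 0.318, 0.111, 0.328 and 0.107 FPKM in swimming tumors 1 to 6. Control 1, swimming 3 and swimming 5 stood apart from the other 9 tumors, which did not exceed 0.161 FPKM, and the groups overlapped. The means were 0.181 ± 0.153 and 0.183 ± 0.109 FPKM (SD, n = 6 each). The log2 difference was 0.0055 with a standard error of 0.08 and a 95% interval from -0.18 to 0.19 (limma adjusted p = 0.996, and p = 0.946 in the exact permutation test). At such a level log2(FPKM + 1) understates relative changes.

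Gprc5d was lower still and was not tested. It was at 0.0405, 0.117, 0.0426, 0.0810, 0 and 0.0428 FPKM in controls 1 to 6 and at 0.0625, 0.0419, 0.195, 0, 0.0843 and 0.135 FPKM in swimming tumors 1 to 6. It was listed at 0 in 1 tumor of each group, and the groups overlapped.

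The variation of the family genes from tumor to tumor was compared within each group. On log2(FPKM + 1), r between Gprc5a and Gprc5b was 0.35 over the 6 control tumors and -0.30 over the 6 swimming tumors. Between Gprc5a and Gprc5c it was -0.10 and -0.75, and between Gprc5b and Gprc5c it was 0.80 and -0.0041, and without control 1, the tumor with the highest level of both genes among the controls, the r of 0.80 became 0.03. With 6 tumors each and the same libraries behind both genes of a pair, these values are descriptions. The ratio of mean Gprc5a to mean Gprc5b was 6.48 in control and 5.198 in swimming tumors, and single tumors lay between 4.08 and 9.47.

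None of the tested genes around Gprc5a passed the threshold, and the neighboring Gprc5d was too low to test. Within 200 kb, 13 genes other than Gprc5d are listed, of which 11 were tested and 0 had an unadjusted or adjusted limma p below 0.05, beside 5.56% (unadjusted) and 0% (adjusted) of all genes tested. Ddx47, an RNA helicase gene upstream of Gprc5a, was at 8.75 FPKM in control and 9.31 FPKM in swimming tumors (log2 difference 0.08, standard error 0.05). Hebp1, a heme-binding protein gene beyond Gprc5d, was at 9.42 and 9.41 FPKM. Cdkn1b, which encodes the cell cycle inhibitor p27, was at 10.6 and 10.5 FPKM. On log2(FPKM + 1), the largest difference among the tested neighbors was that of Gpr19, another orphan receptor gene. It was 0.18 (standard error 0.11), in the direction opposite to Gprc5a. Gpr19 was at 0.822 FPKM in control and 1.04 FPKM in swimming tumors, and at such levels log2(FPKM + 1) understates relative changes. Differences of weakly expressed neighbors can therefore not be compared in size with that of Gprc5a on this scale. Apold1, a gene of the vascular endothelium, had the lowest value, -0.14 (standard error 0.15).

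**Figure D2:**
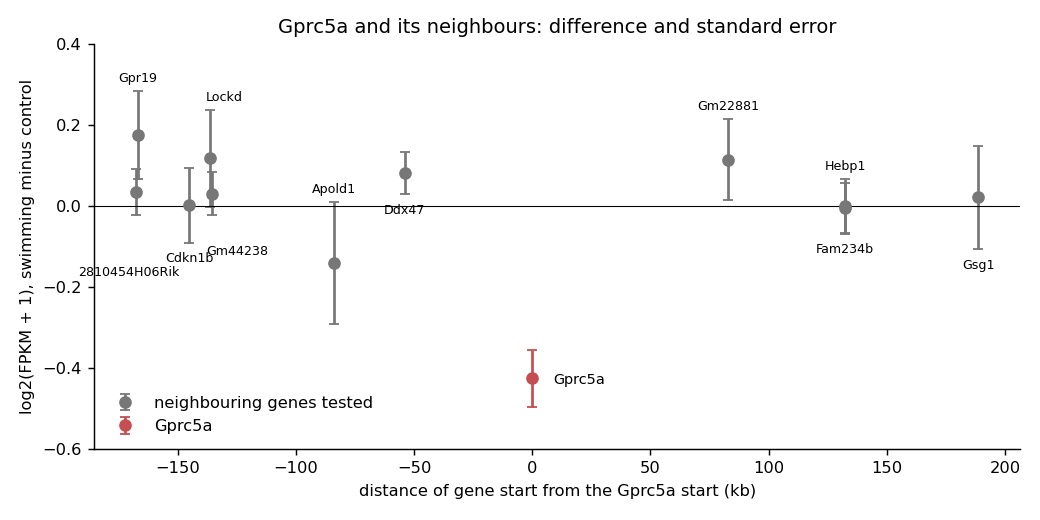
Difference between swimming and control tumors on log2(FPKM + 1) with its standard error (vertical axis) for Gprc5a and the tested genes within 200 kb, by the distance of their starts from the start of Gprc5a in kb (horizontal axis). Gprc5a is at -0.43, and its neighbors are between -0.14 (Apold1) and 0.18 (Gpr19). This scale understates relative changes of neighbors with low FPKM, such as Gpr19.

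Of the other class C receptors, 15 of the 18 on the list were present in the data and 3 were tested. Gabbr1, a subunit of the GABA-B receptor, was at 8.99 FPKM in control and 8.39 FPKM in swimming tumors, and was the only class C receptor on that list above 1 FPKM. Tas1r2, a subunit of the sweet taste receptor, was at 0.283 and 0.192 FPKM (log2 difference -0.11, exact permutation p = 0.0584). In limma, 0 of the 3 had an unadjusted or an adjusted p below 0.05 (5.56% and 0% of all genes tested). Gabbr2, the partner of Gabbr1, and Casr, the calcium-sensing receptor, had means of at most 0.0141 and 0.00453 FPKM.

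Since GPRC5A is known as a retinoic acid-induced gene, the genes of retinoid supply, the receptors and other targets were examined. Of 18 genes of retinoid uptake, synthesis, binding and breakdown, 13 were tested, and 1 was lower and 0 higher in swimming tumors at an unadjusted limma p below 0.05 (2.46% and 3.11% of all genes tested). That gene was Dhrs9, a dehydrogenase that oxidizes retinol. It was at 12.3, 17.5, 14.1, 22.01, 20.9 and 15.1 FPKM in controls 1 to 6 and at 16.3, 9.90, 9.91, 11.7, 11.3 and 10.2 FPKM in swimming tumors 1 to 6. Swimming 1 lay among the controls, and the other swimming tumors were below all of them. The log2 difference was -0.51 with a standard error of 0.15 (limma unadjusted p = 0.00417, adjusted p = 0.889), and p was 0.0152 in the exact permutation test. The list median was 0.0036, beside 0.0039 for all genes tested. Rdh10, which carries out the same step in the embryo and had the highest mean of the list over all tumors (Dhrs9 was higher in control tumors), was at 15.3 FPKM in control and 15.2 FPKM in swimming tumors. Aldh1a2, which makes retinoic acid, was at 0.376 and 0.726 FPKM (log2 difference 0.31, exact permutation p = 0.132).

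Among the retinoic acid receptors and their co-regulators, 11 of 12 were tested and 0 had an unadjusted or adjusted limma p below 0.05 (5.56% and 0% of all genes tested), with a median of 0.04. Rarg, the most abundant of them, was at 46.2 FPKM in control and 47.3 FPKM in swimming tumors. Of the other retinoic acid targets, 16 of 18 were tested and again 0 had an unadjusted or adjusted limma p below 0.05, beside the same shares, with a median of 0.02. Rarres1, a retinoic acid-induced membrane protein gene and the most abundant target, was at 80.3 and 75.4 FPKM. Crabp2, which carries retinoic acid to the nucleus, was at 5.04 ± 2.62 FPKM in control and 3.24 ± 1.39 FPKM in swimming tumors (SD, n = 6 each), a log2 difference of -0.43 with a standard error of 0.32. Icam1, an adhesion receptor gene, had the largest difference in the other direction (0.31, standard error 0.17). Of the 16 targets tested, 10 had a log2 difference above 0 and 6 below 0.

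Gprc5a has also been tied to hypoxia, YAP, epidermal growth factor receptor (EGFR), cAMP and p53 signaling, and targets of each were described in the same way. Of the hypoxia targets, 29 identifiers of 28 genes were tested, 4 were higher and 0 lower at an unadjusted limma p below 0.05 (3.11% and 2.46% of all genes tested), 0 passed adjustment, and the median was 0.18. The 4 were Bnip3, a mitophagy receptor (49.9 and 77.3 FPKM in control and swimming tumors), Eno1, a glycolytic enzyme (242 and 287 FPKM), Pfkfb3, a regulator of glycolysis (2.39 and 3.55 FPKM), and P4ha1, a collagen hydroxylase (45.6 and 55.0 FPKM). In the exact permutation test p was 0.0303 for Bnip3, 0.0346 for Eno1, 0.0693 for Pfkfb3 and 0.0909 for P4ha1, and the limma p of Pfkfb3 and of P4ha1 was no longer below 0.05 in 7 of the 12 fits without 1 tumor. Bnip3 was at 73.1, 34.9, 73.2, 32.9, 43.9 and 41.3 FPKM in controls 1 to 6 and at 75.5, 66.0, 106, 83.6, 47.2 and 85.3 FPKM in swimming tumors 1 to 6, so that the groups overlapped. Within the groups, where the difference between them plays no part, r between Gprc5a and the mean of the hypoxia targets was -0.02 over control and -0.06 over swimming tumors. With 6 tumors in a group and a narrow range of Gprc5a, an r near 0, here and for the lists below, does not show that a relation is absent.

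Of the YAP targets, 21 of 22 were tested, and 1 was lower and 0 higher at an unadjusted limma p below 0.05 (2.46% and 3.11% of all genes tested), with a median of -0.0033. This was Ccn2, a matrix-associated growth factor, at 60.9, 39.3, 31.7, 15.4, 10.1 and 18.0 FPKM in controls 1 to 6 and at 17.0, 11.04, 14.1, 9.43, 14.4 and 11 FPKM in swimming tumors 1 to 6. Controls 1, 2 and 3 were the high tumors, control 6 lay just above the swimming tumors, and controls 4 and 5 lay within their range (exact permutation p = 0.0455). Axl, a receptor kinase and the most abundant gene of the list, was at 249.8 FPKM in control and 236.3 FPKM in swimming tumors.

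In the EGFR and ERK output list, 18 of 19 genes were tested, and 1 was higher and 2 lower at an unadjusted limma p below 0.05 (3.11% and 2.46% of all genes tested), with a median of -0.08. The ERK phosphatase genes Dusp5 and Dusp6 were lower in swimming tumors (29.7 and 21.7 FPKM, and 77.8 and 69.9 FPKM, in control and swimming tumors). Their exact permutation p was 0.0606 and 0.0411, and each was no longer below 0.05 in limma in 6 of the 12 fits without 1 tumor. Spred2, an inhibitor of the same cascade, was higher (15.3 and 17.5 FPKM, log2 difference 0.19, standard error 0.06, unadjusted limma p = 0.00859, exact permutation p = 0.00866). Egfr itself was at 0.380 FPKM in control and 0.383 FPKM in swimming tumors.

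The cAMP and CREB targets, 14 of 14 tested, held 2 genes higher and 1 lower at an unadjusted limma p below 0.05 (3.11% and 2.46% of all genes tested), and their median was 0.03. Per1, a clock gene, was at 32.2, 30.9, 18.5, 15.1, 9.99 and 19.8 FPKM in controls 1 to 6 and at 11.02, 7.62, 12.3, 8.83, 7.52 and 11.2 FPKM in swimming tumors 1 to 6. Control 5 lay within the range of the swimming tumors and the other controls above it. The log2 difference of Per1 was -0.96 with a standard error of 0.24 (limma unadjusted p = 0.00157, adjusted p = 0.889, exact permutation p = 0.00866). Crem, a cAMP-responsive transcription factor gene, was at 1.19 and 1.43 FPKM, and all swimming tumors were above all control tumors, as for 0.0789% of all genes tested. The highest control was at 1.367 FPKM and the lowest swimming tumor at 1.368 FPKM. The unadjusted limma p of Crem was 0.0297, and it was no longer below 0.05 in 4 of the 12 fits without 1 tumor. Its exact permutation p of 0.00216 is the smallest that 6 against 6 tumors can give. Atf3, a stress-induced transcription factor gene, was at 2.71 and 3.91 FPKM (log2 difference 0.38, unadjusted limma p = 0.0167, exact permutation p = 0.0346).

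Of the p53 targets, 16 of 16 were tested and 0 had an unadjusted or adjusted limma p below 0.05 (5.56% and 0% of all genes tested). Their median was -0.04, and 13 of the 16 had a log2 difference below 0, beside 9186 of the 19018 genes tested. Cdkn1a, the cell cycle inhibitor p21 and the most abundant of them, was at 106 FPKM in control and 101 FPKM in swimming tumors. Within the groups, r between Gprc5a and the mean of the p53 targets was 0.38 over control and 0.81 over swimming tumors.

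**Figure D3:**
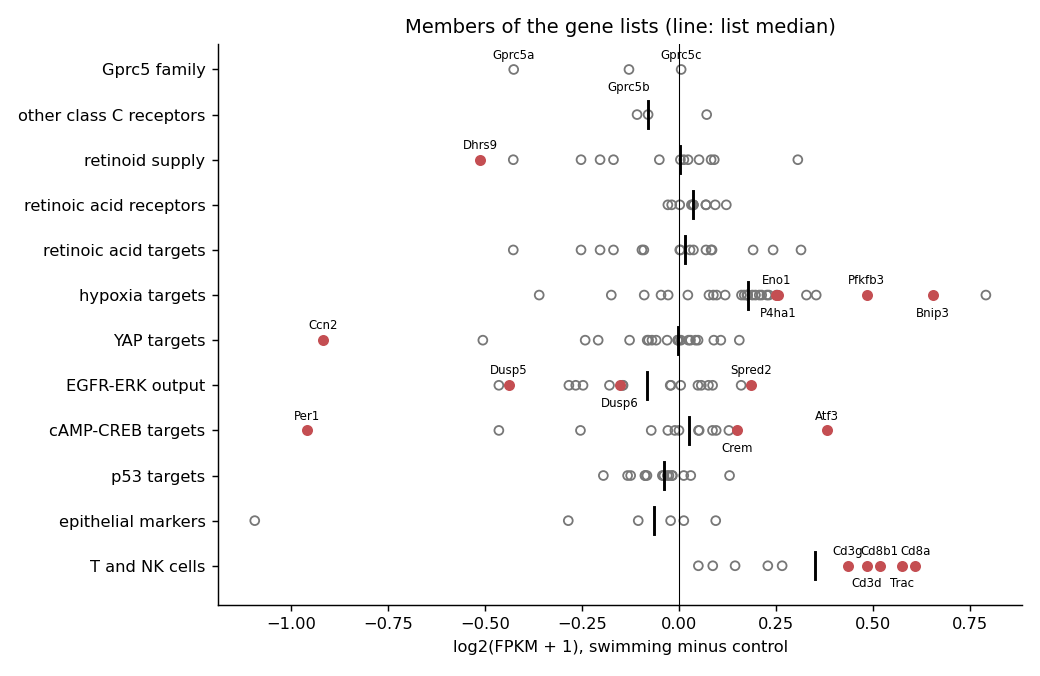
Difference between swimming and control tumors on log2(FPKM + 1) (horizontal axis) for each tested gene of 12 gene lists (vertical axis), with a black line at the list median except for the Gprc5 genes. Filled points have an unadjusted limma p below 0.05; Gprc5a, for which no test is given, is drawn open at -0.43, and the medians run from -0.08 for the class C receptors and the EGFR and ERK output to 0.35 for T and NK cell markers.

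Gprc5a is known from epithelia, so markers of epithelium were examined in the same tumors, and the labelled tumor type was checked against them. Of 16 epithelial markers, 14 were listed and 6 were tested, and 0 of these had an unadjusted or adjusted limma p below 0.05 (5.56% and 0% of all genes tested). Epcam, a defining surface protein of epithelium, had a mean of 0.0312 FPKM in control and 0.0531 FPKM in swimming tumors, and Cdh1, the epithelial cadherin, was at 0.282 and 0.296 FPKM. The 8 listed markers that were not tested (Epcam, Krt7, Cldn4, Cldn7, Ocln, Esrp2, Grhl2 and Elf3) had group means of at most 0.0531 FPKM. Others were abundant, such as Tjp1, a tight junction protein that many other cells also express (26.4 and 28.2 FPKM), and the keratin Krt18 (10.1 and 9.37 FPKM). Krt20, an intestinal keratin and the most abundant gene of the list, was at 154 ± 32.2 FPKM in control and 125 ± 19.1 FPKM in swimming tumors (SD, n = 6 each; log2 difference -0.29, exact permutation p = 0.0996). Krt8, another keratin, was at 129 FPKM in control 4, the tumor with the highest Gprc5a, and between 1.86 and 19.9 FPKM in the other 11 tumors. Of 14 markers of skin keratinocytes, the cells over the injection site, 2 were tested, Krt10 (2.14 and 2.04 FPKM) and Sfn (1.00 and 1.16 FPKM). Krt14, a defining keratin of these cells, was listed with means of 0 and 0.0167 FPKM.

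Markers of immune cells were described in the same tumors. All 10 T and NK cell markers were tested, and 5 (Cd3d, Cd3g, Cd8a, Cd8b1 and Trac) were higher and 0 lower at an unadjusted limma p below 0.05 (3.11% and 2.46% of all genes tested), with 0 past adjustment and a median of 0.35. Their exact permutation p was between 0.0195 for Cd3d and 0.0455 for Cd8a. The limma p of Cd8b1 was no longer below 0.05 in 3 of the 12 fits without 1 tumor. Cd8a, a co-receptor of cytotoxic T cells, was at 1.63, 2.14, 2.44, 0.705, 0.884 and 1.04 FPKM in controls 1 to 6 and at 1.504, 3.30, 1.54, 2.70, 4.66 and 3.07 FPKM in swimming tumors 1 to 6. The summed level of the list was 21.8 FPKM in control (13.3 to 27.3) and 29.8 FPKM in swimming tumors (12.4 to 40.2), and its most abundant gene, Gzmb, was at 13.8 and 16.0 FPKM. Within the groups, r between Gprc5a and the mean of these markers was -0.15 over control and -0.16 over swimming tumors.

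Of 10 B and plasma cell markers 8 were tested, and Igkc and Jchain, an antibody chain and the chain that joins antibodies, were higher in swimming tumors and 0 lower at an unadjusted limma p below 0.05 (3.11% and 2.46% of all genes tested). In the exact permutation test p was 0.0519 for Igkc and 0.0606 for Jchain. Each was no longer below 0.05 in limma in 4 of the 12 fits without 1 tumor. Igkc, which had the highest mean over all tumors, was at 10.98 and 33.5 FPKM. Sdc1, a surface proteoglycan that epithelial cells also carry, was at 16.4 and 15.6 FPKM (log2 difference -0.04, standard error 0.11). The list summed to 36.3 FPKM (25.3 to 62.3) in control and 63.8 FPKM (32.4 to 99.5) in swimming tumors. Within the groups, r between Gprc5a and the mean of these markers was -0.09 and -0.32. The part of immune cells in the level of Gprc5a was not tested. The lists for fibroblasts, endothelium, mural cells, adipocytes, skeletal muscle, macrophages, neutrophils and nerve had 0 genes with an unadjusted or adjusted limma p below 0.05 in either direction (5.56% and 0% of all genes tested). Their medians were between -0.03 for adipocytes and 0.38 for skeletal muscle. The skeletal muscle list differed widely between tumors of a group. Its summed level ran from 3.29 to 203 FPKM in control and from 2.63 to 285 FPKM in swimming tumors.

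A relation was computed between each of the 3 genes and the mean of each of 21 lists over the tumors, 63 in all, and p values are given for the 42 relations of Gprc5b and Gprc5c. With adjustment over all 63, 4 relations of Gprc5c had an adjusted p below 0.05 in a permutation test of Pearson's r, to markers of nerve and Schwann cells, fibroblasts, mural cells and adipocytes. With adjustment over the 42 alone they were 6, with those to endothelial and to B and plasma cell markers added. For Spearman's rho the smallest adjusted p of Gprc5c was 0.122 over the 63 and 0.1025 over the 42. The 3 tumors with high Gprc5c, control 1, swimming 3 and swimming 5, stood apart, so no r between Gprc5c and a list over all 12 tumors is given. In these 3 tumors the mean of the nerve and Schwann cell markers, on log2(FPKM + 1) relative to all tumors, was between 0.23 and 0.36, and in the other 9 it was between -0.15 and -0.06. For fibroblast and adipocyte markers the 3 tumors overlapped the other 9. The lowest of the 3 was at 0.386 and 0.075, and the highest of the 9 at 0.408 and 0.087. For mural cell markers these values were 0.119 and 0.108, without overlap. Over the 9 tumors alone, r with Gprc5c was 0.44 for nerve and Schwann cell markers, 0.57 for fibroblasts, 0.30 for mural cells and -0.26 for adipocytes. The range of Gprc5c in these 9 tumors is narrow, which by itself lowers r. In both groups the fibroblast list was far from uniform, with a summed level from 213 to 873 FPKM in control and from 252 to 852 FPKM in swimming tumors. The most abundant nerve and Schwann cell marker was Pmp22, at 10.2 and 9.69 FPKM, which other cells also express, and Sox10, a defining gene of Schwann cells, had means of 0.0149 and 0.0223 FPKM.

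**Figure D4:**
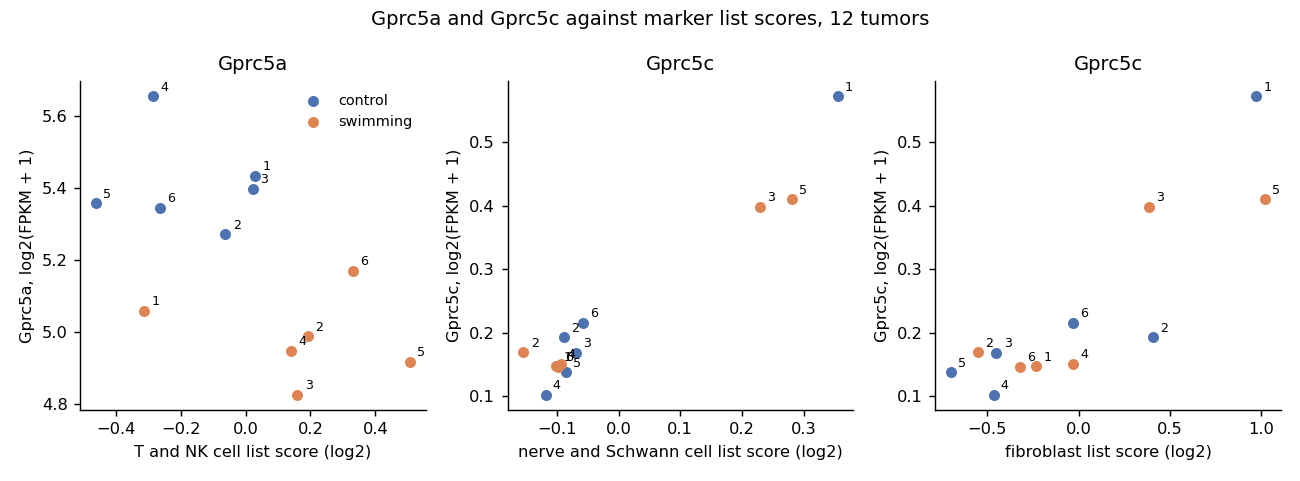
Gprc5a against the mean of T and NK cell markers, and Gprc5c against the means of nerve and Schwann cell and of fibroblast markers, in 12 tumors; both axes are log2(FPKM + 1), the horizontal one relative to the mean over all tumors, and digits are tumor numbers. Gprc5a is higher in every control than in every swimming tumor, and Gprc5c is high in control 1, swimming 3 and swimming 5.

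Because Gprc5a was chosen by its values and its groups do not overlap, its relations are given within groups as descriptions, with no p. With 6 tumors in a group and 21 lists, large r of either sign are among them. With the mean of the retinoic acid receptors and co-regulators, r was -0.61 over control and -0.88 over swimming tumors, and with epithelial markers it was 0.78 and 0.26. With skeletal muscle markers it was 0.06 and -0.89, with the EGFR and ERK output 0.26 and 0.76, and with retinoid supply 0.29 and -0.74. The r of 0.78 includes control 4, the tumor with high Krt8. Swimming 6, with the highest Gprc5a of its group, had the lowest means of that group for 3 of these lists. They were retinoid supply (-0.238), skeletal muscle markers (-1.607) and the retinoic acid receptors and co-regulators (-0.069), so the r of -0.74, -0.89 and -0.88 include that tumor. By permutation of r, the relations of Gprc5b had adjusted p of at least 0.260 over the 63 relations and at least 0.2257 over the 42. The largest r of Gprc5b over all tumors was that with retinoid supply, 0.61 (rho 0.33), and it was 0.18 without the 2 tumors farthest from the median of that list.

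The genes whose pattern was most like that of each Gprc5 gene were sought among 12789 genes with a mean of at least 1 FPKM, by r over the 12 tumors after the mean of each group was removed. For Gprc5a the highest r were those of the pseudogene Gm6451 (0.91), Pgs1, which makes a precursor of cardiolipin (0.85), Zbtb44 (0.83), Vwa8 (0.82) and Clu, the secreted chaperone clusterin (0.81). The lowest were those of the transporter gene Abca2 (-0.90), the polarity gene Llgl2 (-0.89) and Zfpm1, a cofactor of GATA factors (-0.89). The log2 differences between the groups of these 8 genes ran from -0.10 for Gm6451 to 0.10 for Zfpm1. For Gprc5b the highest were Slc17a5, a lysosomal sialic acid transporter (0.92), Mrpl58 (0.91), Cplx2 (0.90), Jrk (0.90) and Cnot3 (0.88), and the lowest were the long noncoding RNA Dubr (-0.89), Gm9887 (-0.88) and Arf6 (-0.88). For Gprc5c the highest were Acsl1, which activates fatty acids (0.98), S1pr3, a sphingosine-1-phosphate receptor (0.96), Aoc3, an amine oxidase of fat and smooth muscle (0.96), Sept4 (0.96) and Cygb, cytoglobin (0.96). S1pr3 was at 4.12 FPKM in control 1, 1.94 FPKM in swimming 3 and 2.15 FPKM in swimming 5, and at most at 1.07 FPKM in the other tumors. The lowest for Gprc5c were Zfp955b (-0.93), Zfp148 (-0.92) and Gnl3l (-0.91). With control 1, swimming 3 and swimming 5 left out, r with Gprc5c over the other 9 tumors was 0.85 for Acsl1, 0.55 for S1pr3, 0.39 for Aoc3, 0.06 for Sept4 and 0.60 for Cygb, and -0.73, -0.82 and -0.52 for Zfp955b, Zfp148 and Gnl3l. These are the extremes of many genes compared over few tumors and are given as descriptions.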

How the data were processed

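The labels gave each tumor its group and number, and all 12 tumors were used. Each tumor came from a different mouse. The deposited values are FPKM per gene, made by the authors with HISAT2 2.0.5 and StringTie 1.3.3. Their methods name the human genome hg38, and the processing notes name hg38 and GRCm38, while the identifiers in the data are those of mouse genes. Symbols, for 30542 of 30630 identifiers, coordinates and sequences were taken from GENCODE M21 on GRCm38. Read numbers were not used here, so no counting error is given.

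Values were compared as log2(FPKM + 1) in limma 3.58.1 (R 4.3.3; eBayes with trend) for the 19018 genes that reached 0.1 FPKM in 6 or more tumors, with Benjamini-Hochberg adjustment over all of them. Of these, 1058 had an unadjusted p below 0.05 and 0 an adjusted p below 0.05. The fit was tested on simulated data. For single genes, p was also taken from exact permutation (two-sided), and for relations from 100000 permutations. Python 3.11.15 was used with pandas 2.3.3 and scipy 1.17.1.

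The members, the 22 gene lists and the tests were chosen with earlier results of these data known. Named genes were the Gprc5 genes, some of the genes within 200 kb, and the 5 highest and 3 lowest in r. List members were named at an unadjusted p below 0.05 (otherwise the most abundant one and those with the largest differences). Other list members named as defining a cell type or pathway were chosen after their values were seen. Alternatives were pseudocounts of 0.1 and 0.01, a filter of 1 FPKM or none, trimmed-mean scaling, quantile normalization, no trend, array weights, the tumor number as a block, and each tumor left out.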

Additional observations from a re-analysis of the deposited data

Results flagged for a closer look

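In a group of 6 tumors, a tumor was singled out when it stood farther from its nearest neighbor than Dixon's 95% criterion allows. Of 88 groups of values looked at, 8 held such a tumor. If the groups were independent and their values normally distributed, 1 in 20, or about 4.4, would do so. The groups share tumors and some lists share genes, so the 8 cannot be set against that number. Gprc5c in control 1 was at 0.487 FPKM, and the next control tumor was at 0.161 FPKM. In the same tumor the mean of the adipocyte markers, on log2(FPKM + 1) relative to all tumors, was 2.33 (next control -0.07) and that of the nerve and Schwann cell markers 0.355 (next control -0.06). Dhrs9 in swimming 1 was at 16.27 FPKM, and the next swimming tumor was at 11.7 FPKM. Crem in swimming 6 was at 1.6 FPKM, with the next at 1.43 FPKM. Swimming 6, which had the lowest Gprc5b and the highest Gprc5a of its group, also stood apart in the mean of the retinoic acid receptors and co-regulators (-0.069, next 0.016) and of the neutrophil markers (0.48, next 0.015). In swimming 5 the mean of the macrophage markers was 0.42, with the next at 0.061. Gprc5a had no tumor of this kind in either group.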

How the results depend on the processing

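The log2 difference of Gprc5a was between -0.44 and -0.42 in the alternatives and between -0.46 and -0.38 with a tumor left out. That of Gprc5b was between -0.21 (without swimming 1) and -0.02 (without swimming 6). Gprc5c reached 0.10 in the alternatives and changed sign, to -0.0043 with quantile normalization and to between -0.029 (without swimming 5) and 0.074 (without control 1) with a tumor left out, and it could not be compared with a filter of 1 FPKM. With that filter, which tests fewer genes, 391 genes in place of 591 were higher at an unadjusted p below 0.05. With a tumor left out, 398 (without control 5) to 853 (without swimming 1) genes were higher and 383 to 649 lower, as were 9 (without control 5) to 30 (without control 1) list members and 3 (without control 5 or swimming 5) to 10 (without control 3) in place of 14 and 5; 9 were lower without swimming 1. The cause was not tested. Of the 19 named list genes at an unadjusted p below 0.05, 9 (Dhrs9, Bnip3, Ccn2, Spred2, Per1, Atf3, Cd3d, Cd3g and Cd8a) were below it in all 9 alternatives and 12 fits without a tumor, and 0 of the 19 changed direction. Of all 19018 genes tested, 3.11% were higher and 2.46% lower at an unadjusted p below 0.05, and 0 passed adjustment. The share of all genes tested that stayed below 0.05 in every fit was not computed. The 9 genes therefore have no background to be set against. Tumors with the same number did not deviate together (mean r -0.12, with 0 of 6 pairs above 0.1), and the main fit did not treat them as pairs. The labels name no batch, and this check cannot show that none was shared. With a block for the number, 451 genes had higher and 441 lower levels at an unadjusted p below 0.05, Gprc5b had an unadjusted p of 0.294 and Gprc5c of 0.954, and Pfkfb3, Dusp5, Crem, Cd8b1, Trac, Jchain and Igkc were no longer below 0.05 (unadjusted p 0.0533 for Trac to 0.0671 for Dusp5). P4ha1 was no longer below 0.05 without a filter, with trimmed-mean scaling or without the trend (0.0509 to 0.0562), Pfkfb3 without a filter (0.05055) and Crem with quantile normalization (0.0923). Scaling moved the median of all genes by -0.0067 (quantile) and -0.0014 (trimmed mean). With pseudocounts of 0.1 or 0.01 and with trimmed-mean scaling, all chosen after seeing the data, 6, 6 and 4 relations had an adjusted p below 0.05; leaving out 3 tumors, or control 1, for Gprc5c and adjusting over 42 relations were also chosen then. Bulk FPKM do not show which cells express Gprc5a, and without read numbers the precision of Gprc5c and Gprc5d is unknown.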

Other observations

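Gprc5 genes left out, no tested gene within 200 kb of Gprc5b, Gprc5c or Gprc5d had an unadjusted or adjusted limma p below 0.05 between the groups (5.56% and 0% of all genes tested). Near Gprc5b, 3 of 6 listed genes within 200 kb were tested. Knop1 was at 6.62 FPKM in control and 6.63 FPKM in swimming tumors and Vps35l, an endosomal sorting gene, at 3.49 and 3.59 FPKM. Near Gprc5c, 15 of 18 were tested, among them genes of the Cd300 cluster of myeloid surface receptors. Cd300ld3 was at 6.70 and 8.70 FPKM (log2 difference 0.34, standard error 0.20), and Cd300ld5 at 4.58 and 3.92 FPKM (-0.35, standard error 0.44). On log2(FPKM + 1) these were the largest differences of the cluster in each direction. Cd300e, at 0.306 and 0.517 FPKM, had 0.21 (standard error 0.12) on this scale, which understates relative changes at low levels. Rpl38, a ribosomal protein gene in the same window, was at 809 and 824 FPKM. Near Gprc5d, 13 of 14 were tested, and most of these are also neighbors of Gprc5a, which itself lies in this window.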
